A study of Mus musculus with 9 samples.

Results

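The genes described here encode the receptors, bridging ligands and motor protein through which the retinal pigment epithelium (RPE) takes up shed photoreceptor outer segments. They were chosen by name, as every probe that is not a control and carries 1 of 10 symbols in the array annotation (Mertk, Axl, Tyro3, Gas6, Pros1, Mfge8, Itgav, Itgb5, Cd36 and Myo7a). This gave 12 of the 39429 probes and 10 of the 31829 gene names on the array. RNA of 3 layers of the mouse eye, RPE, photoreceptors (PR) and choroid (CH), had been hybridised to 9 Agilent arrays with 2 colours, 3 arrays per layer. The eyes came from healthy female C57BL/6 mice (J strain, substrain C57BL/6JOlaHsd in the study's methods), 6 months old in the sample labels and 5 months old in the study's methods (each with a range of 2 weeks), and each sample is a layer cut by laser from cryosections of 1 eye, with amplified RNA. The RPE was cut away before the choroid was taken. The Cy5 channel held the tissue and the Cy3 channel held a common reference of RPE and choroid RNA on every array, so that a log2(Cy5/Cy3) of 0 means the same normalised signal as that reference. A value is given for each array, then as mean ± SD over 3 arrays. The tissues were compared with the log2 fold change (FC) of a linear model and its Benjamini-Hochberg (B-H) adjusted p-value over all probes, and a gene was called when the FC was above 2.5 and the adjusted p-value below 0.01. Where a gene among the 10 has more than 1 probe, the brightest is reported and the other stands beside it. For all other genes named, only the brightest probe is given. Whether a probe lies in coding or untranslated sequence was not determined here, and the chromosome positions of probes are those of the files, on mm9.

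Photoreceptors renew their outer segments by adding discs at the base and shedding the tips, and the RPE engulfs these tips in a daily burst. The tips expose phosphatidylserine. The soluble protein MFG-E8 bridges this lipid to the integrin αvβ5, which binds the particle and signals inward, and Gas6 and Protein S bridge it to the receptor tyrosine kinase Mertk, which drives ingestion. Gas6 and Protein S bind phosphatidylserine only after a vitamin K dependent carboxylation. Tyro3, Axl and Mertk form the TAM family of receptors, CD36 is a scavenger receptor for oxidised lipids, and myosin VIIa moves phagosomes and melanosomes in the RPE. Mutations of Mertk block uptake and lead to loss of photoreceptors.

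The dissected layers carried the markers of their labels, but endothelial markers did not separate CH from RPE. Of 8 RPE markers, 6 were called higher in RPE than in CH and 7 higher in RPE than in PR, while the Best1 probe was well above background on 1 of 3 RPE arrays. All 10 rod and all 6 cone markers were called higher in PR than in either other layer. All 6 fibroblast markers were called higher in CH than in RPE. Of 8 endothelial and 5 smooth muscle and pericyte markers, 0 were called between RPE and CH by limma. At an unadjusted p-value under 0.05, 0 endothelial and 2 smooth muscle and pericyte markers were higher in CH. The endothelial list was at 1.12 to 1.23 in RPE and 0.84 to 1.54 in CH. The smooth muscle and pericyte list was at 0.83 to 1.21 in RPE and 1.13 to 1.99 in CH. The part of choroidal tissue in the RPE samples was not tested. The mean log2 ratio of the RPE list was 0.43, 0.20 and 1.09 on CH arrays 1 to 3, against 1.79 to 2.19 on the RPE arrays and -2.80 to -2.64 on the PR arrays, so that CH replicate 3 lay nearest to the RPE. Signals at the scanner's limit enter these means, since 5 of the 8 RPE, 8 of the 10 rod, 1 of the 6 cone, 1 of the 6 fibroblast and 3 of the 5 melanocyte and pigment cell markers were saturated on at least 1 array. Over Rlbp1 and Rrh, the 2 RPE markers measured without saturation and above background on all arrays, the mean was 0.15, 0.01 and 1.03 on CH arrays 1 to 3 and 1.76 to 2.43 on the RPE arrays, with CH replicate 3 again nearest. In RPE replicate 1 the rod list was at 0.39, against -0.50 and -0.31 in the other RPE samples, and RPE replicate 2 had 91.6% of its probes well above background in Cy5, against 62.0% to 71.2% on the other arrays. In dissected bulk tissue, fewer cells of a type and less RNA per cell cannot be told apart. The arrays lay on 3 slides, with PR replicates 1 and 3 on the first, CH and RPE replicates 1 and 3 on the second, and replicate 2 of each tissue on the third. For PR replicates 1 and 3, slide and tissue cannot be told apart. All 12 probes were well above background and below saturation on all 9 arrays.

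**Figure D1:**
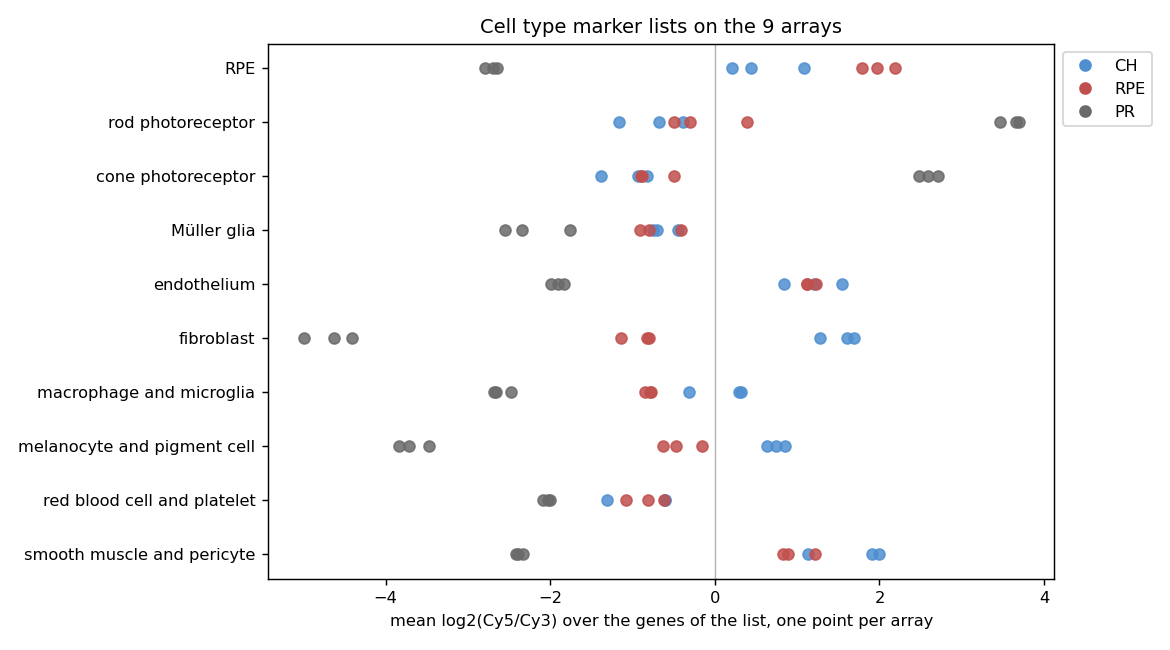
Mean log2(Cy5/Cy3) over the genes of each cell type marker list (x axis) on each of the 9 arrays, 1 point per array, with lists on the y axis. The RPE list lies between 1.79 and 2.19 in RPE and between 0.20 and 1.09 in CH. The fibroblast list lies between 1.27 and 1.69 in CH and between -1.14 and -0.79 in RPE. The endothelium list overlaps, between 0.84 and 1.54 in CH and between 1.12 and 1.23 in RPE.

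The genes did not share 1 pattern. Mertk, Tyro3 and Itgav had their highest mean ratio in RPE, Axl, Gas6, Pros1, Itgb5, Cd36 and Myo7a in CH, and Mfge8 in PR. For 8 of the 10 genes the lowest mean was in PR, and for Gas6 and Mfge8 it was in RPE. Against CH, 1 gene was called higher in RPE (Itgav), where 0.179% of all genes were, and 1 was called higher in CH (Cd36), where 1.75% of all genes were. Against PR, 8 genes were called higher in RPE and 1 (Mfge8) higher in PR, where the shares over all genes were 10.9% and 5.21%. Between CH and PR, 7 genes were called higher in CH and 1 (Mfge8) higher in PR, beside 12.8% and 6.03% of all genes. With the Feature Extraction log ratio, the split over all genes was more even, with 3585 higher in RPE and 2822 in PR in place of 3476 and 1658, and with 4199 higher in CH and 3257 in PR in place of 4064 and 1919. The median log2 difference over the 10 genes was -0.43 for RPE minus CH, 2.01 for RPE minus PR and 2.34 for CH minus PR, and over all genes it was 0.03, -0.0041 and -0.05. The genes were selected for a known role, and these counts describe them without a test of the group.

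**Figure D2:**
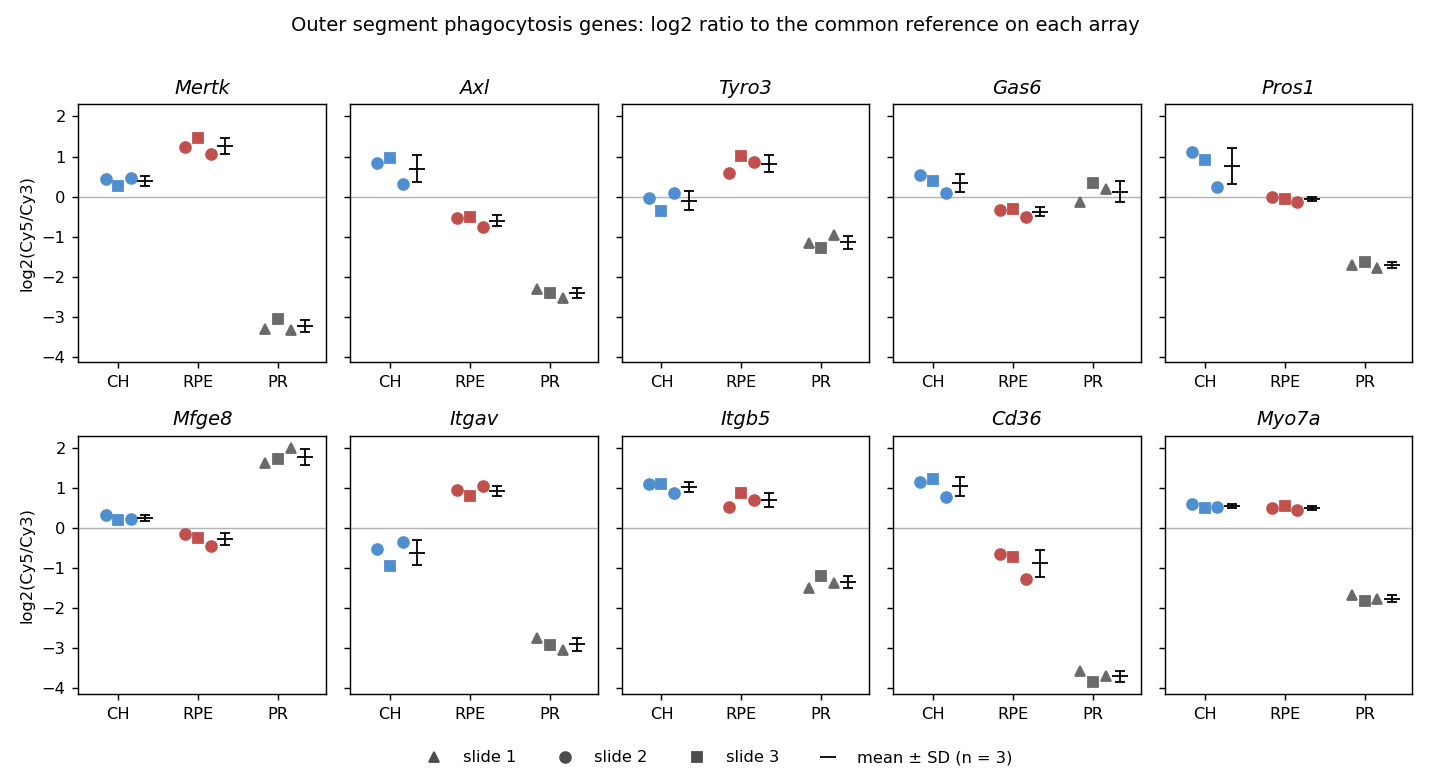
Normalised log2(Cy5/Cy3) (y axis) of the 10 genes at their reported probe on each array, by tissue (x axis), with the slide given by the symbol and mean ± SD over 3 arrays beside the points. Mertk, Tyro3 and Itgav are highest in RPE, Mfge8 is highest in PR, and the CH and RPE points of Myo7a overlap.

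The part of each transcript that the array reads is set by its probe. The first 30 of the 60 bases are shown for Mertk, Itgav, Cd36 and Mfge8, which lead the comparisons below, and for the genes with more than 1 probe, 5′ to 3′, as deposited. No base is in capitals because no part of a probe is singled out.
Mertk probe, mm9 chr2:128627867-128627926, plus strand: agcaccaggtgaaagctgtcaagtcaggtt
Tyro3 reported probe, mm9 chr2:119643759-119643818, plus strand: gcaggctcttgctgttaggaacatttctaa
Tyro3 other probe, mm9 chr2:119642510-119642569, plus strand: atcaacattgagagagctgagcagcctact
Itgav reported probe, mm9 chr2:83646133-83646192, plus strand: gggaatttagtggcaaagtatatattggta
Itgav other probe, mm9 chr2:83643905-83643964, plus strand: tttgcacaggcacttagaacaggtacacat
Mfge8 probe, mm9 chr7:86278689-86278748, minus strand: ctctgggtggttgacaggttggctgtggga
Cd36 probe, mm9 chr5:17288600-17288659, minus strand: aagaatgaaaaatgaacaattcacatgtga

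Mertk (NM_008587), the receptor that drives ingestion, was highest in RPE, intermediate in CH and far lower in PR. Its log2 ratio was 1.24, 1.46 and 1.06 on the RPE arrays (1.25 ± 0.20, SD, n = 3), 0.44, 0.26 and 0.47 on the CH arrays (0.39 ± 0.12) and -3.30, -3.07 and -3.33 on the PR arrays (-3.23 ± 0.14). Every RPE array lay above every CH array, and every CH array lay above every PR array. The FC of RPE over PR was 22.4 (log2 difference 4.49, SE 0.13, B-H adjusted p-value 8.03e-09) and that of CH over PR was 12.3 (3.62, SE 0.13, 1.26e-08). Against CH the difference was smaller, with a FC of 1.82 (log2 difference 0.86, SE 0.13) and a B-H adjusted p-value of 0.00144, and it was not called. The mean CH ratio of Mertk therefore lay nearer to RPE than to PR, in samples where the RPE marker list had its CH ratios of 0.20 to 1.09. The part of RPE tissue in the CH value of Mertk was not tested. Without CH replicate 3, the CH array nearest to the RPE, the log2 difference between RPE and CH was 0.90, and without RPE replicate 2 it was 0.76.

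Tyro3 (NM_019392), a receptor of the same family on the same chromosome, kept the order of Mertk with a smaller range. On the RPE arrays it read 0.60, 1.00 and 0.87 (0.82 ± 0.20, SD, n = 3), on the CH arrays -0.04, -0.35 and 0.10 (-0.10 ± 0.23) and on the PR arrays -1.16, -1.29 and -0.97 (-1.14 ± 0.16). The groups did not overlap. RPE exceeded PR with a FC of 3.90 (log2 difference 1.96, SE 0.15, B-H adjusted p-value 2.69e-06), which was called, while the FC of RPE over CH was 1.90 (0.92, SE 0.15, 0.00235) and that of CH over PR 2.06 (1.04, SE 0.15, 0.000208). The other Tyro3 probe begins 1249 bases away and gave smaller differences. There the RPE ratios were 1.15, 1.39 and 1.15, the CH ratios 0.69, 0.40 and 0.53 and the PR ratios 0.43, 0.09 and 0.59. RPE was again above the other layers on all arrays, but PR and CH overlapped. At that probe no comparison was called, with log2 differences of 0.69 to CH (B-H adjusted p-value 0.00783), 0.86 to PR (0.000622) and 0.17 between CH and PR (0.35). The call of Tyro3 against PR therefore held for 1 of its 2 probes.

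Axl (NM_009465, mm9 chr7:26542541-26542600, minus strand), the TAM receptor that binds Gas6 most tightly, had the opposite order between RPE and CH. Its ratio was 0.84, 0.95 and 0.30 on the CH arrays (0.70 ± 0.35, SD, n = 3), -0.54, -0.52 and -0.77 on the RPE arrays (-0.61 ± 0.14) and -2.30, -2.41 and -2.53 on the PR arrays (-2.41 ± 0.12). CH was the highest layer on all arrays, with replicate 3 the lowest of the CH samples, and PR was the lowest. The FC of CH over RPE was 2.47, a log2 difference (RPE minus CH) of -1.31 (SE 0.17) with a B-H adjusted p-value of 0.000723, just under the FC of 2.5 that a call needs. Without CH replicate 3 the difference was -1.50 and was called. Axl was called higher than PR in RPE, with a FC of 3.49 (1.80, SE 0.17, 9.47e-06), and in CH, with a FC of 8.64 (3.11, SE 0.17, 1.67e-07).

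The 3 TAM receptors thus differed from each other in the direction of their RPE against CH difference, on the scale of log2 differences. Mertk and Tyro3 were higher in RPE and Axl was higher in CH on each array pair of the second slide and of the third. Within the second slide the RPE minus CH difference was 0.69 for Mertk, 0.71 for Tyro3 and -1.22 for Axl. On the third slide, with 1 array of each tissue, it was 1.20, 1.35 and -1.47.

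Gas6 (NM_019521, mm9 chr8:13465444-13465503, minus strand), a secreted bridging ligand of all TAM receptors, varied least between the layers among the ligands. Its CH ratios were 0.54, 0.39 and 0.10 (0.34 ± 0.23, SD, n = 3), its PR ratios -0.15, 0.35 and 0.18 (0.13 ± 0.25) and its RPE ratios -0.33, -0.30 and -0.51 (-0.38 ± 0.11). RPE was below the other layers on all arrays, while PR and CH overlapped. CH exceeded RPE with a FC of 1.65 (RPE minus CH -0.72, SE 0.15, B-H adjusted p-value 0.00837) and PR exceeded RPE with a FC of 1.42 (-0.50, SE 0.15, 0.0196). The difference between CH and PR was 0.22 (SE 0.15, B-H adjusted p-value 0.267), and no comparison of Gas6 was called.

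Pros1 (NM_011173, mm9 chr16:62928674-62928733, plus strand), which encodes the other TAM ligand, Protein S, had low ratios in PR. It read 1.11, 0.92 and 0.25 in CH (0.76 ± 0.45, SD, n = 3), -0.02, -0.06 and -0.12 in RPE (-0.07 ± 0.05) and -1.72, -1.62 and -1.78 in PR (-1.71 ± 0.08). The layers did not overlap, although CH replicate 3 lay near the RPE arrays. CH was called higher than PR with a FC of 5.53 (log2 difference 2.47, SE 0.19, B-H adjusted p-value 2.12e-06) and RPE was called higher than PR with a FC of 3.11 (1.64, SE 0.19, 4.89e-05). The FC of CH over RPE was 1.78 (-0.83, SE 0.19, 0.0117) and was not called. Without CH replicate 3 this log2 difference was -1.08 (0.000256), and without RPE replicate 2 it was -0.83 (0.0353).

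Mfge8 (NM_008594), the bridge between phosphatidylserine and αvβ5, was the only one of the 10 genes with its highest ratio in PR. On the PR arrays it read 1.62, 1.71 and 2.01 (1.78 ± 0.20, SD, n = 3), on the CH arrays 0.34, 0.20 and 0.23 (0.25 ± 0.07) and on the RPE arrays -0.15, -0.25 and -0.44 (-0.28 ± 0.15). All PR arrays were above all CH arrays, and all CH arrays were above all RPE arrays. PR exceeded RPE with a FC of 4.17 (RPE minus PR -2.06, SE 0.12, B-H adjusted p-value 5.02e-07) and CH with a FC of 2.88 (CH minus PR -1.52, SE 0.12, 3.22e-06). The second of these calls was lost, with the same direction, after scaling between arrays, with Cy5 alone and in the series table, where the log2 difference was -1.04, -1.01 and -1.02, and it was kept with median centring (-1.34). The FC of CH over RPE was 1.45 (-0.53, SE 0.12, 0.0127). The rod list was at 3.46 to 3.69 in PR and the Müller glia list at -2.55 to -1.76, against -0.91 to -0.41 for the latter in RPE and CH. The rod value holds probes saturated in PR. The Müller glia genes did not move together, since Rdh10, Vim, Glul and Dkk3 were called lower in PR than in RPE and in CH, while Slc1a3, Aqp4 and Kcnj10 were not called in any comparison. Rdh10, which the study lists among its RPE signature genes, had mean ratios of 1.97 in RPE, -0.02 in CH and -4.18 in PR. The mean ratio in PR was -1.18 for Slc1a3, against -1.87 in RPE and -2.16 in CH, and -1.79 for Aqp4, against -2.21 and -2.37. For Kcnj10 it was -1.51, against -1.92 in RPE and -1.19 in CH. The part of rods or of Müller glia in the PR ratio of Mfge8 was not tested.

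The subunits of the αvβ5 integrin, the binding receptor of the RPE, differed from each other between RPE and CH. Itgav (NM_008402), which encodes the αv subunit, was the gene of the group with the largest FC of RPE over CH and ranked 25 from the top among all genes for that difference. Its RPE ratios were 0.95, 0.80 and 1.05 (0.93 ± 0.12, SD, n = 3), its CH ratios -0.53, -0.95 and -0.36 (-0.61 ± 0.31) and its PR ratios -2.74, -2.92 and -3.05 (-2.90 ± 0.16). The RPE arrays were more than 1 log2 unit above the CH arrays, and the PR arrays were lower still. The FC was 2.92 for RPE over CH (log2 difference 1.55, SE 0.16, B-H adjusted p-value 0.000257), 14.3 for RPE over PR (3.84, SE 0.16, 4.59e-08) and 4.89 for CH over PR (2.29, SE 0.16, 9.76e-07), and each was called. With the deposited series table in place of the scanner signals, the first of these was 1.28 with a B-H adjusted p-value of 0.0444 and was not called.

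The other Itgav probe, whose start is 2228 bases away, had the same order of layers. Its ratios were 0.16, 0.25 and 0.28 in RPE, -1.12, -1.35 and -0.65 in CH and -2.50, -2.92 and -2.63 in PR. No groups overlapped. The differences were 1.27 for RPE minus CH (B-H adjusted p-value 0.00108), which was under the FC of 2.5, and 2.91 and 1.65 for RPE and CH over PR, which were called.

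Itgb5 (NM_010580, mm9 chr16:33949123-33949182, plus strand), which encodes the β5 subunit, was about as high in CH as in RPE. The ratios were 1.09, 1.10 and 0.89 in CH (1.03 ± 0.12, SD, n = 3), 0.52, 0.88 and 0.71 in RPE (0.70 ± 0.18) and -1.49, -1.19 and -1.38 in PR (-1.35 ± 0.15). The lowest CH array and the highest RPE array were nearly level. The FC of CH over RPE was 1.25 (RPE minus CH -0.32, SE 0.12, B-H adjusted p-value 0.0972) and did not pass the test. Itgb5 was called higher than PR in RPE with a FC of 4.16 (2.06, SE 0.12, 5.39e-07) and in CH with a FC of 5.21 (2.38, SE 0.12, 1.54e-07).

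Cd36 (NM_007643), the scavenger receptor, was called in all 3 comparisons, with CH highest and PR lowest. It read 1.14, 1.21 and 0.77 in CH (1.04 ± 0.24, SD, n = 3), -0.66, -0.72 and -1.27 in RPE (-0.88 ± 0.34) and -3.56, -3.85 and -3.69 in PR (-3.70 ± 0.14). Gaps of more than 1 log2 unit separated the layers on all arrays. The FC of CH over RPE was 3.79 (RPE minus CH -1.92, SE 0.18, B-H adjusted p-value 0.000187), that of RPE over PR was 7.06 (2.82, SE 0.18, 7.89e-07) and that of CH over PR was 26.8 (4.74, SE 0.18, 2.03e-08). CD36 is also a protein of capillary endothelium and of macrophages. Of 8 endothelial markers 0 were called between RPE and CH by limma, and 0 had an unadjusted p-value under 0.05, and the list mean was 0.84 to 1.54 in CH and 1.12 to 1.23 in RPE. Of 8 macrophage and microglia markers 2 were called higher in CH than in RPE (7 at an unadjusted p-value under 0.05). The other marker, Csf1r, was higher in RPE by a log2 difference of 0.53 (B-H adjusted p-value 0.0162) and was not called. The list mean was -0.31 to 0.32 in CH and -0.85 to -0.78 in RPE. The part of those cells in the Cd36 difference was not tested.

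Myo7a (NM_008663, mm9 chr7:105199837-105199896, minus strand), the motor, had the smallest SE of the group and nearly the same ratio in CH and RPE. The values were 0.59, 0.50 and 0.53 in CH (0.54 ± 0.05, SD, n = 3), 0.49, 0.55 and 0.46 in RPE (0.50 ± 0.05) and -1.67, -1.83 and -1.78 in PR (-1.76 ± 0.08). CH and RPE overlapped, with a FC of 1.03 (RPE minus CH -0.04, SE 0.08, B-H adjusted p-value 0.797). RPE was called higher than PR with a FC of 4.80 (2.26, SE 0.08, 2.92e-08) and so was CH with a FC of 4.93 (2.30, SE 0.08, 1.65e-08). Myosin VIIa is made by photoreceptors and melanocytes as well as by the RPE. The melanocyte and pigment cell list had 3 of 5 genes called higher in CH than in RPE and a mean of 0.63 to 0.85 in CH, -0.63 to -0.15 in RPE and -3.83 to -3.47 in PR. Over Tyr and Slc45a2, the genes of that list with no saturated probe, the mean was -0.37 to 0.04 in CH, -0.84 to -0.71 in RPE and -3.69 to -3.48 in PR. These genes went opposite ways between RPE and CH. The RPE minus CH difference was 0.68 for Tyr, which was not called, and -1.85 for Slc45a2. The part of pigment cells in the Myo7a ratios was not tested.

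**Figure D3:**
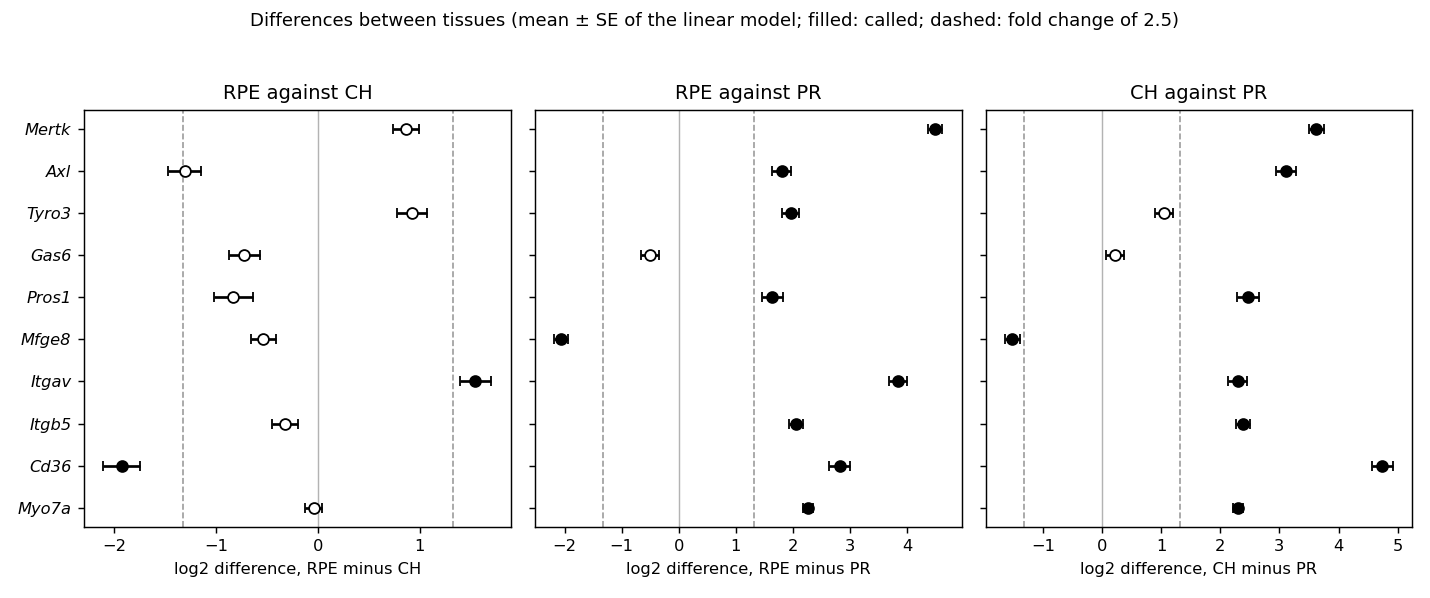
Log2 difference (x axis) of each gene (y axis) for RPE minus CH, RPE minus PR and CH minus PR, with the SE of the linear model as bars, filled symbols for called differences and dashed lines at a FC of 2.5. Itgav and Cd36 are called in the first panel, and Mfge8 is the only gene called higher in PR.

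The direction of the RPE against CH differences was steadier than their calls. Arrays of RPE and CH did not overlap for 9 of the 10 genes, where 38.9% of all genes showed no overlap. One of the 9 was Itgb5, where the gap between the groups was only 0.002 on the log2 scale. The B-H adjusted p-value was below 0.01 for 6 of the 10, whatever the FC, beside 12.3% of all genes. Against PR the RPE arrays did not overlap for 10 of 10 genes (58.7% of all genes) and the CH arrays for 9 of 10 (62.3%), the exception being Gas6. RPE and CH arrays share 2 slides, so that the difference could be taken within each. Within the second slide and the third, the RPE minus CH difference was 1.44 and 1.75 for Itgav, -1.92 and -1.93 for Cd36, -0.75 and -0.99 for Pros1, -0.74 and -0.70 for Gas6, -0.57 and -0.45 for Mfge8 and -0.38 and -0.22 for Itgb5. Myo7a was the only gene with opposite signs on the slides, -0.09 and 0.05. The third slide also held 1 PR array, against which RPE was higher by 4.53 for Mertk, 3.72 for Itgav and 3.13 for Cd36 and lower by a log2 difference of -1.97 for Mfge8, without replication.

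**Figure D4:**
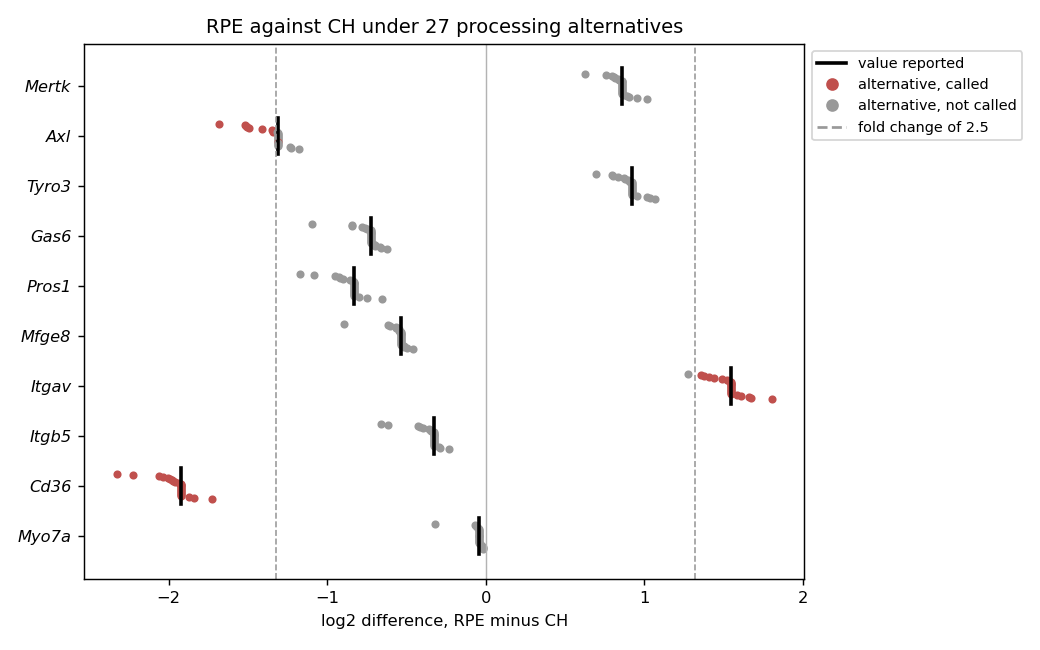
Log2 difference of RPE minus CH (x axis) of each gene (y axis) as reported (bar) and under 27 processing alternatives (points), with dashed lines at a FC of 2.5. No gene changed sign, though some alternatives keep the fitted difference by design and could not change it. The Axl values, from -1.68 to -1.18, straddle the line, while those of Cd36, from -2.33 to -1.73, stay beyond it.

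CH replicate 3, the CH array with the highest RPE marker list, lay nearest to the RPE for most of the genes. It gave the lowest CH ratio for 5 of the 7 genes with a higher mean in CH than in RPE (Axl, Gas6, Pros1, Itgb5 and Cd36) and the highest CH ratio for the 3 genes with a higher mean in RPE. Leaving it out moved the RPE minus CH difference from -0.72 to -0.84 for Gas6, from -1.92 to -2.06 for Cd36 and from 1.55 to 1.68 for Itgav. The part of RPE tissue in that sample was not tested. The fibroblast list separated CH from RPE on every array, at 1.27 to 1.69 against -1.14 to -0.79. Its part in the genes with a higher mean in CH was not tested either.

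Other genes of the pathway were described in 6 lists, 88 genes in all, of which 1 (Kiaa0226) had no probe under its symbol. Each is given at its brightest probe. Some, such as Anxa1, Tub, Itgb6, Vkorc1, Plscr1, Atp8a2 and Vav1, have 2 probes, and the other probe is not given. Over all genes, 0.179% were called higher in RPE than in CH and 1.75% higher in CH. Against PR, 10.9% were called higher in RPE and 5.21% higher in PR. Between CH and PR, the shares were 12.8% and 6.03%. These shares stand beside every count of calls below. At a share of 0.179%, a count of 0 higher in RPE than in CH is not particular to a list of this size. Of 24 receptors and bridging proteins for dying cells, 0 were called higher in RPE than in CH by limma (5 at an unadjusted p-value under 0.05) and 4 were called higher in CH, with a list median of -0.23 (RPE minus CH). These were Lgals3, galectin 3, with a FC of 4.25 (-2.09, SE 0.19), the complement chain C1qc with a FC of 3.30 (-1.72, SE 0.17), the phosphatidylserine-binding annexin Anxa1 with a FC of 3.01 (-1.59, SE 0.21) and the engulfment receptor Megf10 with a FC of 2.64 (-1.40, SE 0.15). Against PR, 10 were called higher in RPE and 2 higher in PR, with a median of 0.62 (RPE minus PR). Thbs1, a matrix glycoprotein that binds CD36, differed most, with a FC of 62.4 of RPE over PR (5.96, SE 0.24) and 50.8 of CH over PR, followed by the clearance receptor Stab1 with 15.3 and 26.0. Tub and Tulp1, which have been described as bridging ligands of Mertk, were both higher in PR. The FC of PR over RPE was 9.79 for Tub (RPE minus PR -3.29, SE 0.20) and 4.42 for Tulp1 (-2.14, SE 0.16). Tulp1 is also needed inside photoreceptors themselves. Between CH and PR, 12 of the 24 were called higher in CH and 2 higher in PR.

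The αv subunit also pairs with β subunits other than β5, and all 4 of these were called higher than PR in RPE and in CH. Itgb8 was called higher in RPE than in CH with a FC of 2.72 (log2 difference 1.44, SE 0.19, B-H adjusted p-value 0.000797), next to the FC of 2.92 of Itgav. For Itgb6 the log2 difference was 0.82, for Itgb1 -0.07 and for Itgb3 -0.19, and none of these was called. Against PR, the Itgb8 probe was well above background on 1 of 3 PR arrays, and its fitted FC of 12.2 of RPE over PR rests in part on signals at background. The Itgb6 probe was not well above background on any PR array, which leaves a bound. Itgb6 was at least 4.89-fold higher in RPE and at least 2.24-fold higher in CH than in PR. This bound sets mean Cy5 signals against the lowest Cy5 signal well above background on each PR array. It is not a ratio to the reference on the same array.

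Of the 3 genes of vitamin K dependent carboxylation, which the TAM ligands need, 0 were called between RPE and CH by limma, and 1 in each direction had an unadjusted p-value under 0.05. Vkorc1, the vitamin K epoxide reductase, was called higher than PR in RPE (FC 2.70) and in CH (FC 3.73). Ggcx, the carboxylase itself, had log2 differences of 0.48 and 0.67. Vkorc1l1 went the other way, with log2 differences of -0.82 for RPE minus PR and -1.23 for CH minus PR, and was not called. Of 10 genes listed for phosphatidylserine exposure, 0 were called between RPE and CH by limma, with 2 higher in RPE and 1 higher in CH at an unadjusted p-value under 0.05. Against PR, 3 were called higher in RPE and 1 higher in PR. The latter was the flippase Atp8a2, with a FC of 6.88 of PR over RPE (RPE minus PR -2.78, SE 0.11) and 6.97 of PR over CH. Plscr1 and Plscr3 were higher in RPE than in PR with FCs of 8.12 and 5.52, and the scramblase Xkr8 was higher in CH than in PR with a FC of 5.76.

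Among 27 genes of engulfment signalling and actin, 0 were called higher in RPE than in CH by limma (9 at an unadjusted p-value under 0.05) and 1 was called higher in CH. The shares over all genes were 0.179% and 1.75%. The gene called higher in CH was Vav1, an exchange factor of blood cells, with a FC of 3.00 (RPE minus CH -1.58, SE 0.17). Against PR 11 were called higher in RPE and 0 in PR (2 at an unadjusted p-value under 0.05). The membrane-actin linker Ezr, a protein of RPE microvilli, had a FC of 42.3 of RPE over PR (5.40, SE 0.20) and Dock1, a Rac exchange factor of the engulfment pathway, had 18.3 (4.19, SE 0.14). Of 19 measured genes of phagosome maturation, 0 were called higher in RPE than in CH (7 at an unadjusted p-value under 0.05) and 1 was called higher in CH. Of the same genes 5 were called higher in RPE than in PR and 1 higher in PR. The lysosomal protease Ctss was higher in CH than in RPE with a FC of 7.72 (-2.95, SE 0.17), and higher in RPE than in PR with 14.5. Ctsd, the cathepsin that degrades opsin in the RPE, was called higher in RPE than in PR at a probe saturated on 2 CH arrays and 1 RPE array. At this probe its RPE minus CH difference was 0.41 (B-H adjusted p-value 0.111). The saturation limits that difference, and the count of 0 higher in RPE than in CH includes Ctsd at this probe. The study lists Ctsd among its RPE signature genes, with a FC over CH above 2.5. The values of the other Ctsd probe are not given here. Mreg, a melanosome protein with a part in phagosome degradation, was called higher in PR than in RPE with a FC of 3.83 (-1.94, SE 0.17). Lgals3, C1qc, Vav1 and Ctss are also products of macrophages. In the macrophage and microglia list, Csf1r alone was higher in RPE than in CH. The list was at -0.31 to 0.32 in CH, at -0.85 to -0.78 in RPE and at -2.68 to -2.48 in PR. Its part in these differences was not tested.

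**Figure D5:**
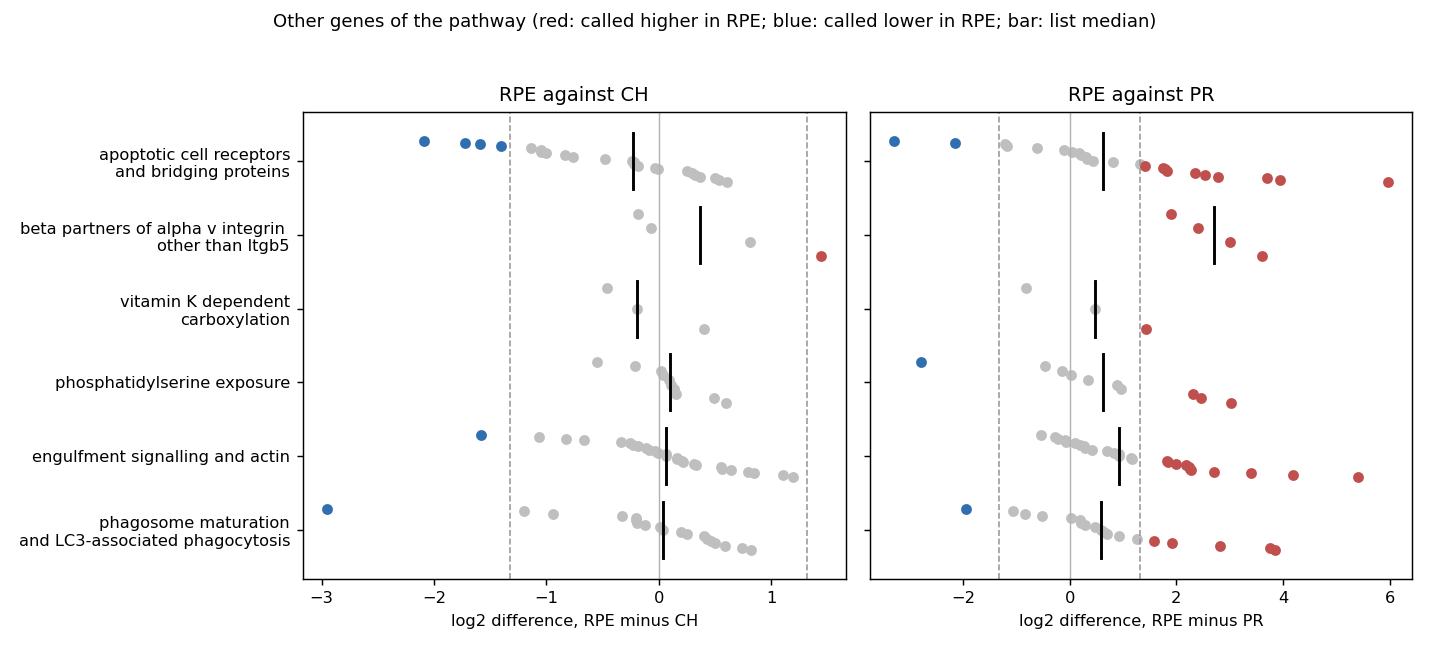
Log2 difference (x axis) of each gene of the 6 pathway lists (y axis) for RPE minus CH and RPE minus PR, 1 point per gene, red where called higher in RPE and blue where called lower in RPE, with a bar at the list median. Itgb8 is the 1 gene called higher in RPE than in CH, and 6 genes are called lower, beside 0.179% and 1.75% of all genes.

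The genes whose ratios followed those of Mertk most closely over the 9 arrays, out of 21481 genes compared, were Lass2 (Pearson's r = 0.9996), Glb1 (0.9993), Gm4907 (0.9990), Slc22a17 (0.9987) and Pon3 (0.9985). Lass2 (NM_029789) encodes a ceramide synthase and had mean log2 ratios of 0.37 in CH, 0.74 in RPE and -1.22 in PR. Glb1 (NM_009752) encodes a lysosomal β-galactosidase and had 0.53, 1.19 and -2.01. Pon3 (NM_173006) encodes a paraoxonase and had -0.87, 0.07 and -4.37. The 9 arrays fall into 3 tissues, so these coefficients rest mainly on the order and spacing of the tissue means. Among the 10 genes, Myo7a (0.98) and Itgav (0.97) came nearest to Mertk and Mfge8 ran opposite to it (-0.98).

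The promoters of Mertk and Itgav are shown as those of the genes with the largest FC of RPE over PR among the 10, and both windows of Myo7a because one of them held the only motif match. The sequences are from RefSeq on GRCm38.p6 and cover the 250 bases before the annotated start, in the direction of the gene. Capitals mark a match to a motif searched on both strands.
Mertk promoter, GRCm38.p6 chr2:128698665-128698914, plus strand: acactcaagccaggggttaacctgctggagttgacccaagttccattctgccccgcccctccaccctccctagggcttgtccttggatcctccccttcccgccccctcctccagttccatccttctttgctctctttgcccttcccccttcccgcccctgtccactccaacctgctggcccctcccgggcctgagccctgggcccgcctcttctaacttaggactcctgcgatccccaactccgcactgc
Itgav promoter, GRCm38.p6 chr2:83724147-83724396, plus strand: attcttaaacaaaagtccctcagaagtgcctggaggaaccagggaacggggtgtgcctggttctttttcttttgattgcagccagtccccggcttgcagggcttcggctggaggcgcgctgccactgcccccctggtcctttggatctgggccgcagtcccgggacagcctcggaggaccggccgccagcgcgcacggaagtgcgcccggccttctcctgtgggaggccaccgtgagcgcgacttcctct
Myo7a promoter of the upstream start, GRCm38.p6 chr7:98119494-98119743, minus strand: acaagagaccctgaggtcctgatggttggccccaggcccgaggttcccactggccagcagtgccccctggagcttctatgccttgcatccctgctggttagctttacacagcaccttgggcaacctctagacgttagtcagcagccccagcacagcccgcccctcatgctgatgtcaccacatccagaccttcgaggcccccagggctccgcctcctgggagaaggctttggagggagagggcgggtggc
Myo7a promoter of the downstream start, GRCm38.p6 chr7:98109249-98109498, minus strand: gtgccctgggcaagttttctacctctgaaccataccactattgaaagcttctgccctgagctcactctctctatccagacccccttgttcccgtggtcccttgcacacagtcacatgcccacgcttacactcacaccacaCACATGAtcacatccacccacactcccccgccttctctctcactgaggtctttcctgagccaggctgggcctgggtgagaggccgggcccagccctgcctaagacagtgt
The motifs were TAATCC, bound by the homeodomain proteins OTX2 and CRX, TCATGTG, the M-box of MITF, and CACGTG, an E-box of MITF and its relatives. None of these letter strings contains another. All 10 genes had an entry, and Myo7a had a pair of starts, which gave 11 windows. TAATCC was in 0 of 11, beside 6.25% of 32851 promoters, TCATGTG in 1 of 11, beside 3.25%, and CACGTG in 0 of 11, beside 6.02%. The 1 match was in the downstream Myo7a window. The GC content of the windows ran from 43.2% for Cd36 to 73.2% for Tyro3, and the median over all promoters was 52.4%.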

How the data were processed

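Gene expression was measured on 9 arrays, 3 each of CH, RPE and PR. Per the file headers, Agilent Feature Extraction 9.5.3.1 read the scans, with probe positions on mm9, and the deposited mean signals and median local backgrounds are intensity values as scanned. The deposited log ratio is a log10 value, and the deposited series table is on a log2 scale, follows Cy5 rather than the ratio, and its normalization is not given in the sources used here (Pearson's r with log2 Cy5 over probes, which are not independent, was 0.998 on each array). Both served only as alternatives. The number of arrays limits the precision.

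The members and gene lists were chosen with earlier results of these data known. Background was corrected with normexp (offset 50), log2(Cy5/Cy3) was normalized by loess within arrays with control and outlier spots left out, and the spots of a probe were averaged. In limma 3.58.1 (R 4.3.3), lmFit gave a mean per tissue over 9 arrays, and eBayes p-values were B-H adjusted over 39429 probes. A call needed a FC above 2.5 and an adjusted p-value below 0.01, thresholds of the study's methods. CH against PR was added with the same model. The labels give the replicates as separate samples, and the study's methods used an eye per sample. Counts and figures were made with Python 3.11.15, pandas 2.3.3 and matplotlib 3.10.9. The fit was tested on simulated data of 39429 probes with known changes in RPE. Of 100 changes of 2 on the log2 scale it called 93 for RPE against CH and 91 for RPE against PR. Of 100 changes of 3 it called 99 and 98, and it made 2 and 1 false calls. The simulated noise was independent between arrays, and no change below 2 was simulated. The RPE minus CH differences of the 10 genes were all smaller, from -1.92 to 1.55, so these rates do not cover them. Named are the 10 genes at their brightest probe, the 5 genes with the highest Pearson's r with Mertk, and, of each pathway list, the genes called between RPE and CH and the 2 called genes with the largest difference in each direction against PR. Itgb1, Itgb3, Itgb6, Ggcx, Vkorc1l1 and Best1, where outside this rule, were named after their values were seen. The other marker genes named singly, among them Rlbp1, Rrh, Rdh10, Csf1r, Tyr and Slc45a2, were also outside this rule. A further 27 settings covered background, normalization, reference channel, replicate and slide blocks, outlier marks, dim probes, several probes per gene, variance model, thresholds, the series table and each array left out in turn.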

Additional observations from a re-analysis of the deposited data

How the results depend on the processing

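Each of the 10 genes was refitted under 27 alternatives in 3 comparisons. No difference changed sign, and 793 of 810 kept their side of the thresholds, with 11 gained and 6 lost calls. Several settings could not change a difference or its sign. Other thresholds, another variance model, dropping dim probes and a fit of the compared tissues alone keep the fitted difference. Leaving out an array of the third tissue keeps it too. The 793 include these settings. Genes called higher in CH than in RPE numbered 2 in place of 1 under median centring, scaling between arrays, the Feature Extraction log ratio, Cy5 without the reference, the series table, array weights and a FC above 2, the added gene being Axl in each (log2 difference -1.68, -1.52, -1.34, -1.49, -1.51, -1.41 and -1.31). Genes called higher in PR than in CH numbered 0 under scaling between arrays, Cy5 without the reference and the series table, where Mfge8 (-1.04, -1.01 and -1.02) passed the p-value threshold and missed the FC. Genes called higher in RPE than in CH numbered 0 in the series table (Itgav at 1.28). Scaling between arrays also lost Axl (1.09) and Pros1 (1.20) for RPE minus PR, and a FC above 2 added Tyro3 (1.04) for CH minus PR. With each array left out in turn, the count called higher in CH than in RPE was 1 to 2, being 2 without CH replicate 3, RPE replicate 1 or RPE replicate 2 (Axl at -1.50, -1.34 and -1.35), and the other 5 counts did not move. The largest shift of the median of all genes under another scaling was 0.06 on the log2 scale.

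Over all genes, 57 were called higher in RPE than in CH, against 9 with median centring, 168 with scaling between arrays, 18 with Cy5 alone, 15 in the series table, 89 with array weights and 299 with a FC above 2, and against 16, 151 and 33 without CH replicate 2, CH replicate 3 and RPE replicate 2. The 558 called higher in CH became 1050 with median centring, 871 with scaling, 335 in the series table and 1151 with a FC above 2. The genes called higher in PR rose from 1658 (against RPE) and 1919 (against CH) to 2822 and 3257 with the Feature Extraction log ratio and to 2773 and 3155 with a FC above 2. The cause of these shifts was not tested.

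The labels number the samples 1 to 3 in each tissue but do not tie the numbers to an eye. Correlations of the deviations from the tissue means between samples of one number ran from -0.08 to 0.29. They were 0.16 to 0.29 for replicate 2, whose 3 arrays share a slide. For RPE and PR replicate 3, which lie on different slides, the value was also 0.29. CH replicate 3 and PR replicate 1, with different numbers and slides, had 0.25. The numbers were not taken to pair the samples. With the replicate number as a block, the counts were 1 and 1 for RPE against CH, 8 and 1 for RPE against PR and 7 and 1 for CH against PR, as without it. With 3 arrays per tissue, differences near a FC of 2.5 can fall on either side of it, as Axl did, and a probe's ratio cannot separate the cell types of a layer.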
